A study of Mus musculus with 6 samples.

Results

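The metabotropic glutamate receptor genes Grm2, Grm3, Grm4, Grm5, Grm7 and Grm8 were chosen by symbol and were represented by 9 of 45077 probe sets, that is, by 6 of 22527 gene symbols. On these arrays each probe set reads a transcript with several short probes, and its value is a log2 signal. The samples were cerebral cortices of 6 male mice labelled 16 weeks old, 2 in each of 3 groups, all housed individually. SAMR1 mice, a senescence-resistant strain that serves as the control strain, received water by mouth. SAMP8 mice, a strain with accelerated senescence, received either water (control SAMP8) or sugarcane top ethanolic extract (STEE-fed SAMP8) at 20 mg/kg by mouth. In all 3 groups the administration ran for 30 days and went on through 8 days of behavioral tests. According to the paper, BrdU, a label of dividing cells, was added to the drinking water of all animals for part of the administration. The tissue was taken after the tests, so the mice were older at sampling if 16 weeks is their age at the start. The authors deposited 1 mean log2 signal per group and probe set, to 2 decimals. No values of single mice were used here, so the spread between the 2 mice of a group is unknown, no error is given beside any value, and no difference below was tested. A probe set is described as past the threshold when 2 group means differed by at least 1.2-fold. That is slightly more than 0.26 on the log2 scale, so a difference of 0.26 was not counted. The strain difference is that of control SAMP8 minus SAMR1, and the STEE difference is that of STEE-fed SAMP8 minus control SAMP8. The control SAMP8 mean enters both. SAMP8 and SAMR1 are separate strains, so the effect of accelerated senescence and that of other differences in their genomes cannot be told apart.

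Metabotropic glutamate receptors are G protein-coupled receptors that tune synaptic transmission more slowly than the ion channel receptors for glutamate do. The group I receptor encoded by Grm5 sits mainly on postsynaptic membranes around the synapse and signals through Gq and phospholipase C. The group II receptors (Grm2, Grm3) and the group III receptors (Grm4, Grm7, Grm8) couple to Gi/o, lower cyclic AMP and, at axon terminals, restrain transmitter release. Grm3 is also made by astrocytes.

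The receptor genes showed little difference between the 3 groups, with a single exception at 1 of the 2 probe sets of Grm7. That probe set was higher than in SAMR1 by 1.67-fold in control SAMP8 and by 1.77-fold in STEE-fed SAMP8. The remaining 8 receptor probe sets stayed under the threshold in all 3 comparisons. For the STEE difference no receptor probe set was past it, and the largest size was 1.12-fold.

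**Figure D1:**
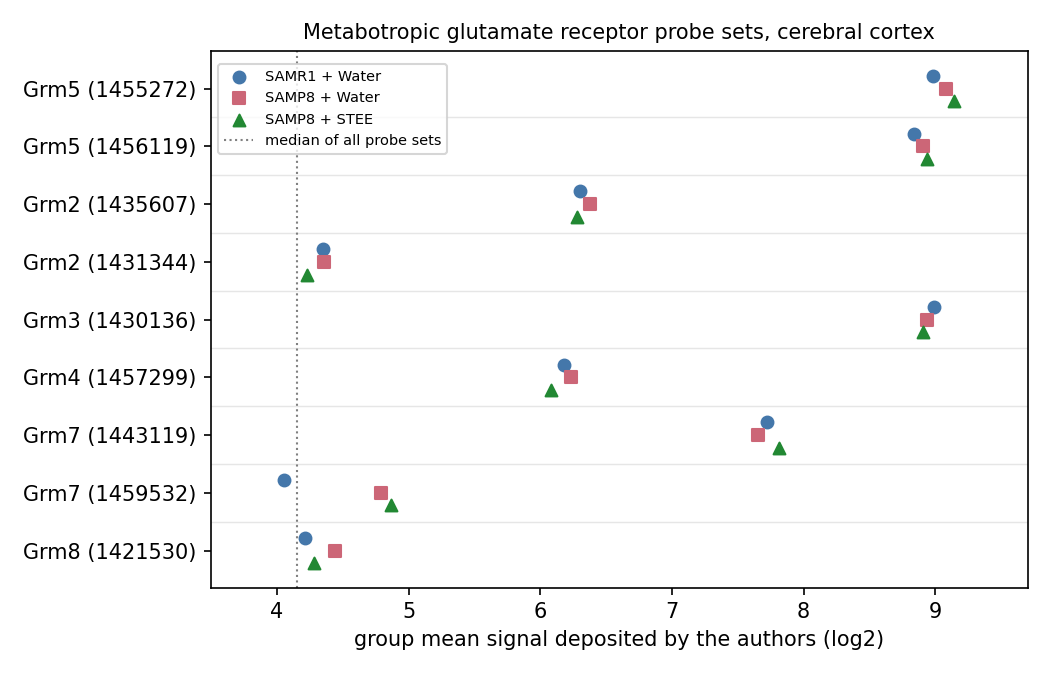
Group mean log2 signal deposited by the authors (horizontal axis) for each of the 9 receptor probe sets (vertical axis, gene with the probe set number), with circles for SAMR1 + Water, squares for SAMP8 + Water and triangles for SAMP8 + STEE; the dotted line is the median of all probe sets at 4.15. The 3 group means lie close together for 8 probe sets, while Grm7 probe set 1459532 lies at 4.05 in SAMR1 and at 4.79 and 4.87 in the SAMP8 groups.

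Grm5, the only group I receptor among the 6 genes, was high on the array at both of its probe sets, and the order of the groups was the same at both. At probe set 1455272 the authors' mean log2 signal was 8.98 in SAMR1, 9.08 in control SAMP8 and 9.14 in STEE-fed SAMP8. At probe set 1456119 it was 8.84, 8.91 and 8.94 in the same order of groups. SAMR1 was thus lowest and STEE-fed SAMP8 highest at each. The strain difference was 0.10 at the former and 0.07 at the latter, and the STEE difference was 0.06 and 0.03. Strain differences of at least 0.10 in size were found for 39.9% of all probe sets.

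Grm2, a mainly presynaptic group II receptor, was lowest in STEE-fed SAMP8 at both probe sets. Probe set 1435607 had authors' mean log2 signals of 6.30 in SAMR1, 6.38 in control SAMP8 and 6.28 in STEE-fed SAMP8. Probe set 1431344 had 4.35, 4.36 and 4.23. The STEE differences were -0.10 and -0.13, sizes that 30.4% and 19.0% of all probe sets reached or passed. The strain differences were 0.08 and 0.01. Grm3, the other group II receptor, had 1 probe set with authors' means of 8.99, 8.94 and 8.91 in SAMR1, control SAMP8 and STEE-fed SAMP8. Its strain difference was -0.05 and its STEE difference -0.03, both smaller than those of most probe sets.

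Grm4, a group III receptor best known from cerebellar granule cells, had authors' mean log2 signals of 6.18 in SAMR1, 6.23 in control SAMP8 and 6.08 in STEE-fed SAMP8. The strain difference was 0.05, and the STEE difference was -0.15, a size reached by 13.8% of all probe sets. Grm8, a presynaptic group III receptor, had means of 4.21, 4.44 and 4.28 in the same order of groups, close to the median signal of all probe sets. Both genes were highest in control SAMP8. For Grm8 the strain difference was 0.23 (1.17-fold, a size reached by 10.2% of all probe sets) and the STEE difference was -0.16 (1.12-fold, reached by 11.7%). It was the receptor probe set nearest to the threshold from below. Both Grm8 differences use the same control SAMP8 mean, with opposite signs, so they are not independent.

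Grm7 encodes a group III receptor of the presynaptic active zone with low affinity for glutamate, and its 2 probe sets differed in what they showed. At the brighter probe set, 1443119, the authors' mean log2 signal was 7.72 in SAMR1, 7.65 in control SAMP8 and 7.81 in STEE-fed SAMP8. At probe set 1459532 it was 4.05 in SAMR1, 4.79 in control SAMP8 and 4.87 in STEE-fed SAMP8. SAMR1 was therefore the lowest group at the dimmer probe set and the middle one at the brighter. The strain difference was 0.74 at the dimmer probe set and -0.07 at the brighter, a gap of 0.81 within the gene. The STEE difference was above 0 at both, at 0.08 for 1459532 and 0.16 for 1443119.

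The strain difference of probe set 1459532 was large for the array. A log2 difference of at least 0.74 in size was found for 0.526% of all probe sets, and for 0.717% of the 6555 probe sets whose mean signal lay within 0.5 of that of this probe set. Its mean in SAMR1, 4.05, lay just under the median of all probe sets in that group, 4.16. Detection calls were not used here. This probe set was singled out as the largest strain difference of the 9 receptor probe sets. The gap between the Grm7 probe sets contains the same 0.74, so its size is not a second observation. Of 5284 genes with exactly 2 probe sets, 30 (0.568%) had a gap of at least 0.81 in the strain difference, and the median gap was 0.10. For the STEE difference the gap of Grm7 was 0.08, the same as the median over these genes. Which part of the Grm7 transcripts each probe set reads was not analysed here. The strain difference of the brighter probe set, -0.07, was of a size that 55.0% of all probe sets reached or passed. Control SAMP8 was thus higher than SAMR1 at the dimmer probe set and little different from it at the brighter.

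**Figure D2:**
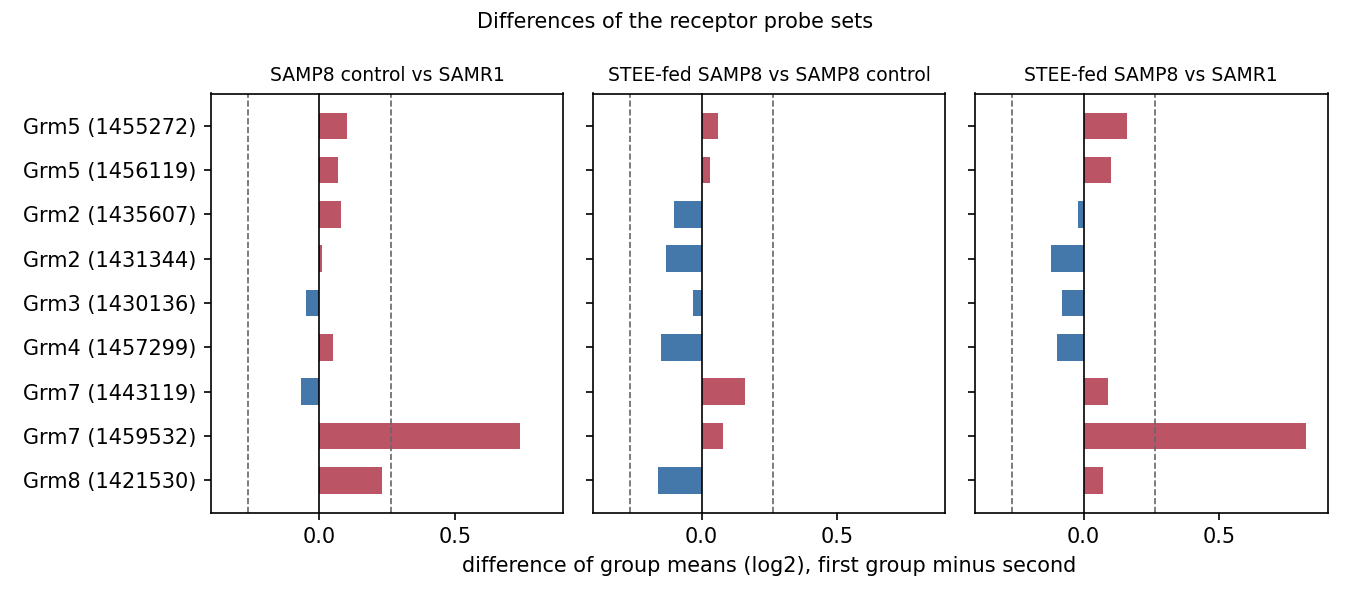
Difference of the authors' group means on the log2 scale (horizontal axis, first group minus second) for each receptor probe set (vertical axis, gene with the probe set number) in the 3 comparisons; red bars are above 0, blue bars below 0, and dashed lines mark 1.2-fold. Only the bars of Grm7 probe set 1459532, at 0.74 and 0.82, cross a dashed line.

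Counted over the 9 receptor probe sets, 1 was higher and 0 were lower by at least 1.2-fold in the strain difference, where 3.68% of all probe sets were higher and 3.43% lower by that much. In the STEE difference, 0 receptor probe sets were higher and 0 lower, where the shares of all probe sets were 1.03% and 0.976%. For STEE-fed SAMP8 against SAMR1, 1 was higher and 0 were lower, against 4.6% and 3.25% of all probe sets. With 9 probe sets, these counts do not set the receptors apart from the array. Leaving aside size, 7 of the 9 were above 0 in the strain difference, where 46.5% of all probe sets were, and 4 of the 9 in the STEE difference, where 47.3% were. The median log2 difference over the 9 was 0.07 in the former and -0.03 in the latter, and the median over all probe sets was 0.00 in both. A lean above 0 between the strains was not particular to these receptors. Of 40 probe sets of GABA-A receptor subunits, 70.0% were above 0 in the strain difference, with a median of 0.08. Of 38 probe sets of AMPA, kainate, delta and NMDA receptor subunits, 47.4% were, with a median of 0.00.

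With STEE the receptors did not all lie on the same side of 0. Both Grm5 probe sets and both Grm7 probe sets were higher in STEE-fed than in control SAMP8, by 0.03 to 0.16, and Grm2, Grm3, Grm4 and Grm8 were lower, by log2 differences of -0.03 to -0.16. For STEE-fed SAMP8 against SAMR1, a comparison without the control SAMP8 mean, the log2 differences were 0.16 and 0.10 for Grm5, -0.02 and -0.12 for Grm2, -0.08 for Grm3, -0.10 for Grm4, 0.07 for Grm8, and 0.82 and 0.09 for Grm7. STEE-fed SAMP8 and SAMR1 were thus within 1.2-fold of each other at each receptor probe set other than 1459532.

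**Figure D3:**
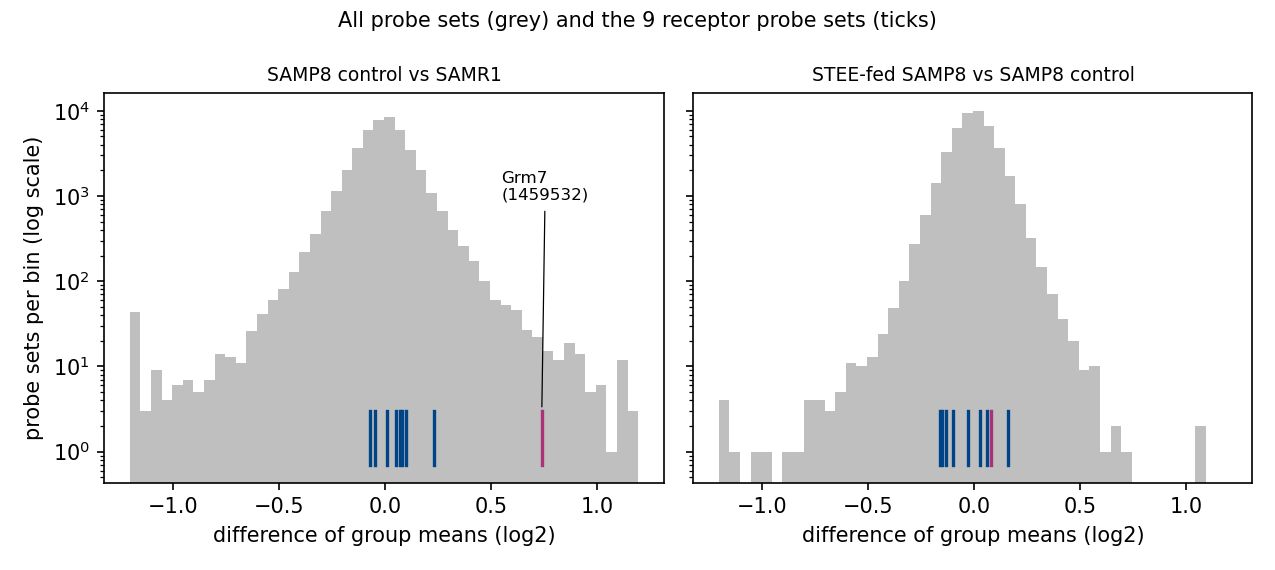
Number of probe sets (vertical axis, log scale) by difference of the authors' group means (horizontal axis, log2) for the strain difference (left) and the STEE difference (right); grey bars are all 45077 probe sets, in bins of 0.05 with those beyond 1.2 in size added to the end bars, and ticks are the 9 receptor probe sets. For the strain difference 8 ticks lie within the bulk of the bars and the purple tick of Grm7 probe set 1459532 lies at 0.74; with STEE all 9 lie between -0.16 and 0.16.

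Genes whose group means followed the same course as a receptor were looked for among single-symbol probe sets whose mean over the 3 groups was above the median, by the Euclidean distance over the strain and STEE differences. For Grm8, whose brightest probe set had the widest range of the 6 genes (0.23), Trib2, Amn1 and Ccnl2 had the same differences to 2 decimals, at a distance of 0.00, and 128 of 20064 probe sets lay within 0.05. For Grm7 probe set 1459532, which was looked up after its values had been seen, the nearest by their strain and STEE differences were Ranbp9 (0.77 and 0.09), Maf (0.71 and 0.09) and Matn2 (0.72 and 0.11), and 4 of 20063 probe sets lay within 0.05. The likeness rests on 3 group means, and both Maf, at 4.10 in SAMR1, and this Grm7 probe set were above the median only in the SAMP8 groups.

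Genes that act with the receptors were read at the brightest probe set of each gene, in 5 lists with 62 genes on the array. Of these, 6 were higher (9.68%) and 2 lower (3.23%) past the threshold in the strain difference, against 3.3% and 3.19% of 20750 genes read in the same way. In the STEE difference, 0 of the 62 were higher and 0 lower, against 0.988% and 0.959%. For STEE-fed SAMP8 against SAMR1, 7 were higher and 1 lower, against 4.1% and 2.91%. The median over the 62 was 0.01 in the strain difference and 0.04 in the STEE difference. The lists were chosen with earlier results of these data known. Most of the 62 genes were above the median signal of all probe sets, and the 20750 genes were not matched to them for signal.

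Of 11 genes of the Gq pathway used by group I receptors, 1 was past the threshold between the strains. Plcb1, a phospholipase C beta isoform of cortical neurons, had authors' mean log2 signals of 9.16 in SAMR1, 9.52 in control SAMP8 and 9.52 in STEE-fed SAMP8, a strain difference of 0.36. Of its 5 probe sets, 4 had a strain difference above 0, and the 5 ran from -0.06 to 0.36. Of 8 scaffold genes, 1 was past it. Homer1, whose protein ties Grm5 to the postsynaptic scaffold and to calcium stores, had means of 8.94, 9.24 and 9.34, a strain difference of 0.30. All 5 probe sets that carry the symbol Homer1 alone had a strain difference above 0, of 0.25 to 0.47. A further probe set, which lists the transcript C330006P03Rik beside Homer1, had means of 7.58, 9.39 and 9.30, a strain difference of 1.81.

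Among 15 genes of the Gi/o pathway that group II and III receptors use, 2 were higher past the threshold between the strains and none was lower. Adcy2, an adenylyl cyclase, had authors' means of 8.20, 8.51 and 8.49 in SAMR1, control SAMP8 and STEE-fed SAMP8, a strain difference of 0.31 at its single probe set. Gnb5, a G protein beta subunit that partners with RGS proteins, had 8.10, 8.39 and 8.40, a difference of 0.29 at its brightest probe set and of -0.03 to 0.29 over the 4 probe sets whose entry holds the symbol. At these brightest probe sets the SAMP8 groups lay within 0.02 of each other, above SAMR1. Another Gnb5 probe set was lower in control SAMP8 than in SAMR1, by -0.03, and had a STEE difference of 0.17. That probe set was dim, with means of 3.0, 2.97 and 3.14, under the median of all probe sets. Adcy5, another adenylyl cyclase, was named after its values had been seen. At its brightest probe set it was past the threshold only for STEE-fed SAMP8 against SAMR1. Its means there were 7.95 in SAMR1, 8.19 in control SAMP8 and 8.30 in STEE-fed SAMP8. Over its 4 probe sets the difference of STEE-fed SAMP8 from SAMR1 ran from -0.02 to 0.35.

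Among 17 binding partners and regulators, 2 were higher and 1 was lower past the threshold. Rgs4, which shortens the signals of Gq and Gi/o proteins, had authors' means of 9.46, 9.77 and 9.82, a strain difference of 0.31, and all 3 of its probe sets had a strain difference above 0, of 0.31 to 0.86. Rgs2, a regulator that acts mainly on Gq, had 8.54, 8.91 and 8.83, a difference of 0.37, with 4 of 4 probe sets above 0, of 0.05 to 0.38. The 0.05 came from a dim probe set with means of 3.18, 3.23 and 3.11, under the median of all probe sets. Grip1, a PDZ scaffold protein, had 5.60, 5.28 and 5.46, a difference of -0.32 at the brighter and -0.02 at the dimmer of its 2 probe sets.

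Of 11 genes for glutamate release, uptake and recycling, 1 was past the threshold. Slc17a6, the vesicular glutamate transporter typical of thalamic and other subcortical neurons, was 7.42 in SAMR1, 6.69 in control SAMP8 and 6.93 in STEE-fed SAMP8, a strain difference of -0.73, and its other probe set differed by -0.80. Slc17a7, the transporter typical of cortical neurons, had a strain difference of 0.05. For the astrocyte uptake genes Slc1a2 and Slc1a3 it was 0.00 and -0.10.

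**Figure D4:**
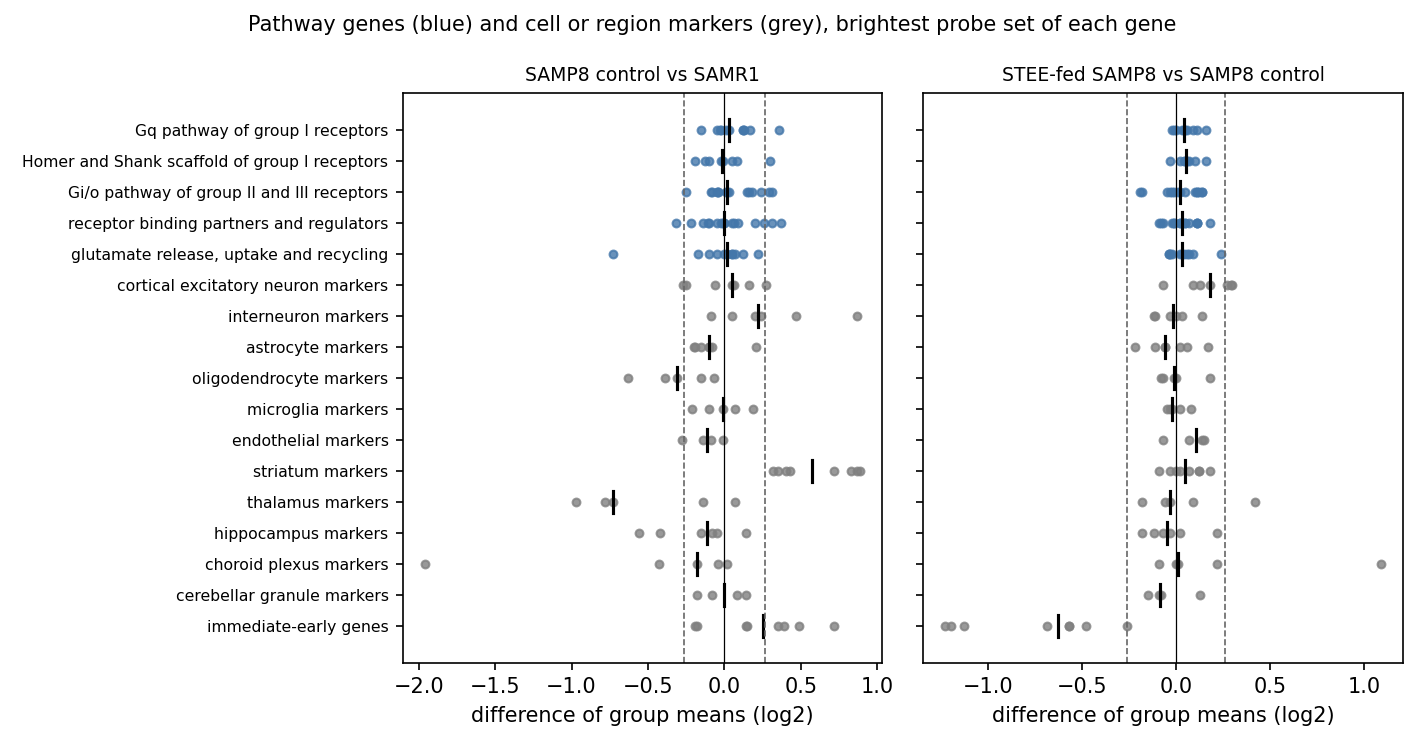
Difference of the authors' group means (horizontal axis, log2) for each gene of the lists named on the vertical axis, at the brightest probe set of the gene; blue points are pathway genes, grey points are markers of cell types or brain regions and immediate-early genes, black bars are list medians and dashed lines mark 1.2-fold. Between the strains, striatum markers lie to the right of the dashed line and the pathway medians near 0; with STEE the pathway genes lie within the dashed lines and immediate-early genes to the left.

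The tissue was labelled cerebral cortex, and all 7 markers of cortical excitatory neurons were above the median signal in the mean of the 3 groups. Markers of other brain regions differed between the strains. Of 8 striatum markers, 8 were higher past the threshold in the strain difference, with a median of 0.57. Their mean log2 signal was 7.57 in SAMR1 (6.21 to 9.0 over the genes), 8.17 in control SAMP8 (6.56 to 9.72) and 8.22 in STEE-fed SAMP8 (6.68 to 9.63). Of 5 thalamus markers, 3 were lower, namely Tcf7l2, Prkcd and Plekhg1, and the mean of the 5 was 5.95 in SAMR1 (5.07 to 7.40), 5.44 in control SAMP8 (4.55 to 7.47) and 5.49 in STEE-fed SAMP8 (4.66 to 7.56). Signal alone does not show whether a marker was expressed, and the lowest marker mean was 3.10, of the cerebellar granule cell marker Gabra6 in control SAMP8. The part of these markers in the strain differences of Grm7, Grm8, Homer1, Rgs4, Adcy2 or Slc17a6 was not tested. In bulk tissue, fewer cells of a type and less RNA per cell cannot be told apart.

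For the strain difference in the other marker lists, counts past the threshold at the brightest probe set of each gene ran as follows. Of 20750 genes read in the same way, 3.3% were higher and 3.19% lower past it. Of 7 astrocyte markers 0 were past the threshold, with a median of -0.10, and their mean log2 signal was 8.68 in SAMR1, 8.59 in control SAMP8 and 8.56 in STEE-fed SAMP8. Of 5 oligodendrocyte markers 3 were lower (Mog, Mobp and Mag), with means of 9.74, 9.43 and 9.43. Of 6 interneuron markers 2 were higher (Vip and Npy), with means of 8.76, 9.05 and 9.04. Of 5 microglia markers 0 were past it, and of 4 endothelial markers Cldn5 was lower at -0.28. Of 6 hippocampus markers Lct and Dsp were lower at -0.42 and -0.56, and of 5 choroid plexus markers Ttr and Kcnj13 were lower at -1.96 and -0.43. Lct, Dsp and Kcnj13 lay under the median of all probe sets in each group, at 3.62, 3.86 and 3.68 in SAMR1. Only 2 of the 6 hippocampus markers and 2 of the 5 choroid plexus markers were above the median signal in the mean of the 3 groups. Ttr, the transthyretin gene of the choroid plexus, had authors' means of 10.2 in SAMR1, 8.24 in control SAMP8 and 9.33 in STEE-fed SAMP8. Of 4 cerebellar granule cell markers, the cells in which Grm4 is best known, 0 were past the threshold in the strain or the STEE difference. Only 2 of these 4 were above the median signal, so the count says little about such cells. For the STEE difference, Tbr1, Cux2 and Fezf2 of the 7 cortical excitatory neuron markers were higher past the threshold, at 0.29, 0.30 and 0.27. Over the 3 probe sets of Cux2 the STEE difference ran from -0.01 to 0.30. The mean of the 7 was 7.34 in control and 7.51 in STEE-fed SAMP8. Of 20750 genes read in the same way, 0.988% were higher and 0.959% lower past the threshold with STEE. Of the thalamus markers Plekhg1 was higher past it at 0.42, with 0.00 at the other of its 2 probe sets, and of the choroid plexus markers Ttr at 1.09. In the same comparison 7 of 8 immediate-early genes, which report recent neuronal activity, were lower past the threshold (median -0.63), with means of 7.53 in SAMR1, 7.76 in control SAMP8 and 6.99 in STEE-fed SAMP8. The 9 receptor probe sets stayed within 1.12-fold there, and the part of these genes in the receptors' small differences was not tested.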

How the data were processed

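Amplified, biotinylated RNA from each cortex was read on 1 Affymetrix mouse array with perfect-match probes. The scans were summarised by the authors with RMA in Expression Console and carried into Transcriptome Analysis Console. The group values that the authors deposited are on the log2 scale and are bi-weight averages over the 2 arrays of a group, in 2 tables of 45077 probe sets. The control SAMP8 mean differed between the tables for 0 probe sets. The tables also hold the authors' linear fold changes, ANOVA p-values and FDR p-values, and none of these were used. RMA brings all arrays to a common distribution, so a shift shared by all genes would not be seen.

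Log2 differences of the group means were computed with Python 3.11.15, numpy 2.4.6 and pandas 2.3.3, and figures with matplotlib 3.10.9. Rounding of the means moves a difference by at most 0.01. Probe sets were taken when their symbol entry held a receptor symbol. A gene was summarised by its probe set with the highest mean over the 3 groups. Counting was tested on simulated data. Since only group means were read, no test, SD or leave-one-out value was made, and precision is limited by the 2 arrays of each group. The labels do not say whether the mice of a group came from separate litters.

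The 6 genes, the gene lists and the threshold were chosen with earlier results of these data known. Named in the text are the 6 receptors with every probe set, the pathway genes past 1.2-fold (at most 3 per list and comparison), and the 3 nearest genes by pattern. Symbols on the array can be old: Drd1a is listed in place of Drd1 and Adrbk1 in place of Grk2.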

Additional observations from a re-analysis of the deposited data

How the results depend on the processing

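The count of receptor probe sets past the threshold depended on the fold and on the probe set read. At 1.1-fold it was 2 in place of 1 in the strain difference (Grm7 and Grm8), 3 in place of 0 in the STEE difference (Grm4, Grm7 and Grm8) and 2 in place of 1 for STEE-fed SAMP8 against SAMR1 (Grm5 and Grm7), folds that 25.9%, 16.2% and 27.6% of all probe sets reached in either direction. Read at 1 brightest probe set per gene, it was 0 in both comparisons with SAMR1, because the probe set 1459532 of Grm7 was then left out. Read as the mean over its probe sets, Grm7 had a strain difference of 0.335, and of 0.455 for STEE-fed SAMP8 against SAMR1, where the values were -0.07 and 0.09 at its brightest probe set. At 1.5-fold, and with each group centred, quantile normalized or corrected for a running median over signal, the counts were the same. A filter on the mean signal removed no receptor probe set, but 1459532 passed it only through the SAMP8 groups. The median over the receptors ran from 0.043 (quantile) to 0.08 (centred) in the strain difference, from -0.073 (mean over the probe sets of a gene) to -0.03 in the STEE difference, and from 0.00 (mean over the probe sets of a gene) to 0.08 (centred) for STEE-fed SAMP8 against SAMR1, with 0.033 under quantile normalization, so the sizes of these medians depended on the scaling and summary. The running median for single genes and the scalings of probe set 1459532 were added after seeing the data. Without each receptor gene in turn, the median ran from 0.05 to 0.075 in the strain difference, from -0.10 to 0.03 in the STEE difference and from -0.02 to 0.09 for STEE-fed SAMP8 against SAMR1, so the sign of the latter 2 depended on the genes taken. No receptor probe set carried an _s_at or _x_at suffix. The labels give no pairing of mice between the groups, so no paired analysis was made. Leaving out each replicate was not run because only group means were read.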

Other observations

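Beside the metabotropic receptors, the probe sets of the ion channel receptors for glutamate were read as deposited, with no test. The 38 probe sets of 18 AMPA, kainate, delta and NMDA receptor subunit genes had a median log2 difference of 0.00 between control SAMP8 and SAMR1 (-0.49 to 0.31) and of 0.04 for STEE-fed against control SAMP8 (-0.19 to 0.17). Between control SAMP8 and SAMR1, 1 of Gria4 was higher by at least 1.2-fold (0.31), and 3 were lower, namely 1 of Grin2d (-0.28) and 2 of Grik1 at -0.49 and -0.33. Of all probe sets 3.68% were higher and 3.43% lower by that much. For STEE-fed against control SAMP8, 0 of the 38 reached 1.2-fold, where 1.03% of all were higher and 0.976% lower.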
